A study of Mus musculus with 8 samples.

Results

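NADPH oxidases, dual oxidases and the inducible nitric oxide synthase gene Nos2 were followed in colitic mouse colon, as 10 genes picked by symbol: Duox2, Duoxa2, Duox1, Duoxa1, Nox1, Noxo1, Noxa1, Cybb, Cyba and Nos2. All 10 were among the 18806 genes of the count table, and 8 had enough reads to be tested among 14578 genes. Colon RNA came from 8 mice, 4 in each group. Colitis was induced in every mouse with DSS, or dextran sulfate sodium, which damages the lining of the colon. On top of this, Alistipes putredinis (AP), a gut anaerobe, was given to the DSS+AP mice and not to the DSS mice. The strain, genotype, age, dose and day of sampling are not given in the sources used here, and no mouse without DSS was among the samples, so healthy colon is not part of any comparison.

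An NADPH oxidase carries electrons from NADPH across a membrane to oxygen, which yields superoxide, and a dual oxidase releases hydrogen peroxide. In the colon the dual oxidase Duox2 sits at the surface of the epithelium with its maturation factor Duoxa2, and the oxidase Nox1 works lower in the epithelium with its organizer Noxo1 and its activator Noxa1. Cybb encodes the catalytic chain of the phagocyte oxidase, whose loss causes chronic granulomatous disease, and Cyba encodes p22phox, the small chain that Nox1 and Cybb both need. Nos2 makes nitric oxide from arginine and is switched on in epithelium and macrophages by bacterial products and cytokines.

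Nos2, Duoxa2, Cybb and Cyba fell in DSS+AP colon and Noxa1 rose, by the edgeR quasi-likelihood test with Benjamini-Hochberg adjustment over all tested genes. The largest of these changes was that of Nos2, whose level was 6.12 times as high in DSS as in DSS+AP, and the smallest was that of Cyba, at 1.37 times. Duox2, Nox1 and Noxo1 did not pass, although Duox2 had an adjusted p of 0.0505. Thus 5 of the 8 tested members were called, 4 lower and 1 higher, where 29.2% of all tested genes were called, 20.4% lower and 8.84% higher. In 4 of the 8 the groups did not overlap, as was so for 30.3% of all tested genes (Noxa1 above, 10.8% of genes; the other 3 below, 19.5%). Without the library DSS+AP 2 the count was again 4 lower and 1 higher, with Duox2 in place of Cyba (28.6% of all genes called, 19.8% lower and 8.82% higher). When another library was left out the number of members called lower was 3 without DSS 2, beside 20.9% of all genes. It was 2 when DSS 1 (16.9%) or DSS 3 (17.0%) was dropped, and also when DSS+AP 3 (14.7%) or DSS+AP 4 (15.3%) was. Without DSS 4 (14.3%) or DSS+AP 1 (13.4%) it was 1 of 8, near the share of all genes. A positive log2 fold change means higher with AP and is given with its standard error (SE), levels are CPM (counts scaled to the library's size after TMM adjustment), and a gene was called at an adjusted p under 0.05.

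The libraries held between 16089081 and 17104290 estimated counts, so that 3 counts, taken as the floor of detection, came to between 0.167 and 0.186 CPM. This floor covers counting error only. On the first principal component of the 500 most variable genes (73.2% of their variance) DSS+AP 2 lay at 0.117, below the other DSS+AP libraries (25.7 to 39.99). DSS 2 lay next to it at -3.27, above the other DSS libraries (-39.3 to -13.6). Both thus lay between the remaining libraries of the groups. Results are given with and without DSS+AP 2, and the members' calls also without each other library, DSS 2 included. Markers of epithelium were abundant in both groups, the 10 genes of the pan-epithelial list summing to 13014 to 15458 CPM without AP and 14127 to 16193 CPM with it, with 1 higher and 1 lower. Markers of neutrophils, macrophages, B cells and the gut wall were lower. All 12 tested neutrophil genes were called lower, with sums of 136 to 562 CPM without AP against 31.0 to 119 with it, and of the list's 14 genes Ngp and Camp were at 0 in some libraries of both groups. So were 12 of 15 monocyte and macrophage genes (444 to 1006 CPM against 341 to 467), all 8 B cell genes (15.1 to 118 against 6.16 to 14.7), 9 of 10 smooth muscle genes (2605 to 4274.5 against 1213 to 2513) and all 8 endothelial genes (153 to 264 against 88.5 to 110.2). Of 12 surface colonocyte genes 2 were higher (6 without DSS+AP 2), and of 9 tested genes of the crypt base and of dividing cells 5 were (3 without DSS+AP 2). Of 3 tested eosinophil genes 1 was lower, and the other 2 had positive changes that were not called (list median 0.69). Without DSS+AP 2, 2 of 4 tested eosinophil genes were lower (median -0.36). In bulk tissue, fewer cells of a type and less RNA per cell cannot be told apart.

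The genes of the dual oxidases lie side by side on mouse chromosome 2 in the build GRCm38.p6: Duox2 (gene 214593, 122279246 to 122298740, minus strand), Duoxa2 (gene 66811, 122298900 to 122302885, plus strand), Duoxa1 (gene 213696, 122303540 to 122313763, minus strand) and Duox1 (gene 99439, 122313010 to 122347972, plus strand). Duox2 and Duoxa2 thus point away from each other, enzyme and maturation factor back to back. Noxa1 is on chromosome 2 as well (gene 241275, 25085667 to 25095205), Nox1 and Cybb are on chromosome X (gene 237038, 134086421 to 134137711, and gene 13058, 9435252 to 9487766), Noxo1 is on chromosome 17 (gene 71893, 24696234 to 24700530), Cyba on chromosome 8 (gene 13057, 122424771 to 122432940) and Nos2 on chromosome 11 (gene 18126, 78920787 to 78960226). In the GENCODE annotation of the same build, 70.4% of the exon bases of Noxo1 are shared with Tbl3 on the other strand, 42.8% of those of Duoxa2 with Duoxa1, 12.1% of those of Nox1 with Cstf2 and 3.09% of those of Noxa1 with Entpd8. The sources used here do not say whether counting used the strand, so these counts are uncertain. The estimated counts of Nox1 and Noxo1 were not whole numbers in any of the 8 libraries, so some of their reads were shared out among genes. Those of Cstf2 were fractional too, and with Nox1 they added up to a whole number in each library. The counts of Tbl3, Duoxa2, Duoxa1, Noxa1 and Entpd8 were whole in every library, so the fractions of Noxo1 were not shared with Tbl3.

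The bases upstream of the start sites of Duoxa2, Cybb and Noxa1 are shown because Duoxa2 and Cybb fell and Noxa1 rose. RefSeq start sites were found for 9 of the members. For Cybb and Noxa1 the 250 bases before the start are given, at chrX:9469325-9469574 and chr2:25095206-25095455 (both minus strand), and for Duoxa2 the 159 bases between it and Duox2, at chr2:122298741-122298899 (plus strand), from RefSeq in GRCm38.p6. The 159 bases begin after the end of the longest RefSeq span of Duox2. The RefSeq start sites used for Cybb, Nox1 and Duox2 lie inside the longer spans of these genes given above, so matches before them can be within the gene. All run 5′ to 3′ on the gene's strand, and capitals mark matches to the motifs searched on both strands. These were the TATA box TATAAA (in 12.4% of all 32851 upstream windows of this length), the CCAAT box CCAAT (33.85%), the kappa B consensus of NF-kappa B (3.90%) and the STAT-type palindrome, TTC and GAA spaced by 3 bases (7.02%).
Duoxa2: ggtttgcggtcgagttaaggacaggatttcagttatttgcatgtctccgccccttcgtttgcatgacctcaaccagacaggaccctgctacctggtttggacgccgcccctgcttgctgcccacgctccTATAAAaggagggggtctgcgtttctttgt
Cybb: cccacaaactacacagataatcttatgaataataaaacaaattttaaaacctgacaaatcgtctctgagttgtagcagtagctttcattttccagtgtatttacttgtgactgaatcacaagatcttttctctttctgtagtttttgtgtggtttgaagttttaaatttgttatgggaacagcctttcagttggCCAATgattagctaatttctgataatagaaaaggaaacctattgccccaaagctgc
Noxa1: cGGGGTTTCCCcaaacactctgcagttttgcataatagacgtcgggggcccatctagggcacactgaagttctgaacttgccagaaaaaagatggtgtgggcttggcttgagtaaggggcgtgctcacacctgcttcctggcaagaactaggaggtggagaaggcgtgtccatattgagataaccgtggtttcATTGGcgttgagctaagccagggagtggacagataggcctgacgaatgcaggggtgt
Duoxa2 held a TATA box from 30 to 25 bases before its start. Cybb held a CCAAT box from 56 to 52 bases before its start, and Noxa1 an inverted one from 57 to 53 bases before. In Noxa1 the kappa B consensus matched from 249 to 240 bases before the start on both strands. Among the 250-base windows of the other members, Nox1 held a kappa B match from 91 to 82 bases before its start, and Duox2 an inverted CCAAT box from 183 to 179 bases before. These matches are descriptions of letters, and no binding was measured here.

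Duox2, the dual oxidase of the colon surface, was lower in 3 of the 4 DSS+AP libraries than in any DSS library. Its levels in DSS 1 to 4 were 504, 474, 590.1 and 726 CPM, and in DSS+AP 1 to 4 they were 252, 542, 255 and 275 CPM. In DSS+AP the libraries 1, 3 and 4 lay close together and below every DSS library, and DSS+AP 2 lay within the DSS range. The mean was 573 ± 113 CPM without AP and 331 ± 141 CPM with it (SD, n = 4 each), a log2 fold change of -0.79 ± 0.26 (SE) that did not pass (edgeR adjusted p = 0.0505). Duox2 passed without DSS+AP 2, at -1.13 ± 0.15 (edgeR adjusted p = 0.00459), where its mean over the other libraries of the group was 260.7 ± 12.8 CPM. It also passed with DESeq2 (-0.76, adjusted p = 0.0193) and with limma-voom and sample quality weights (-1.09, adjusted p = 0.00372). It did not pass when any library other than DSS+AP 2 was left out (edgeR adjusted p from 0.0571 to 0.134), nor with the epithelial covariate (-0.65, 0.117), and with the smooth muscle covariate it was at -0.0034 (0.996).

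Duoxa2, the factor that lets Duox2 leave the endoplasmic reticulum, fell. It stood at 107, 93.9, 111 and 146 CPM in DSS 1 to 4 and at 28.4, 84.5, 25.8 and 39.8 CPM in DSS+AP 1 to 4. Every DSS+AP library lay below every DSS library, DSS+AP 2 by the least. The change was -1.36 ± 0.36 (edgeR adjusted p = 0.0218), from 114 ± 22.1 to 44.6 ± 27.3 CPM, and -1.86 ± 0.20 without DSS+AP 2 (adjusted p = 0.00459). Dropping DSS 1 or DSS 4, or any DSS+AP library other than DSS+AP 2, ended its call (adjusted p from 0.0561 to 0.0622 by edgeR). Duoxa1, with which it shares exon bases on the other strand, had at most 6 counts in any library.

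The counts of Duox2 and Duoxa2 were compared within each library, without division by gene length. The exons of Duox2 span 6771 bases and those of Duoxa2 1592, so only the difference between groups is read. The log2 ratio of Duox2 to Duoxa2 was 2.23, 2.33, 2.41 and 2.31 in DSS 1 to 4, and 3.15, 2.68, 3.30 and 2.79 in DSS+AP 1 to 4. All 4 DSS+AP libraries, DSS+AP 2 included, had more Duox2 counts for each Duoxa2 count than any DSS library. The means differed by 0.66 (pooled SD 0.21; exact two-sided permutation p = 0.0286, the smallest that 4 against 4 can give). Adjusted over the 22 ratios computed here this p was 0.0786, so that no ratio of the 22 passed the adjustment.

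Duox1 and Duoxa1, the second dual oxidase and its factor, were barely detected. Duox1 had 6, 5, 18 and 6 counts in DSS and 16, 9, 9 and 9 in DSS+AP. Duoxa1 had 6, 6, 2 and 1 counts in DSS and 5, 2, 0 and 1 in DSS+AP, and the 0 allows up to 3 counts. Both were left out of the test for low counts. When no filter on low counts was applied, Duox1 was at 0.39 ± 0.47 (edgeR adjusted p = 0.555) and Duoxa1 at -0.77 ± 0.82 (0.490).

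**Figure D1:**
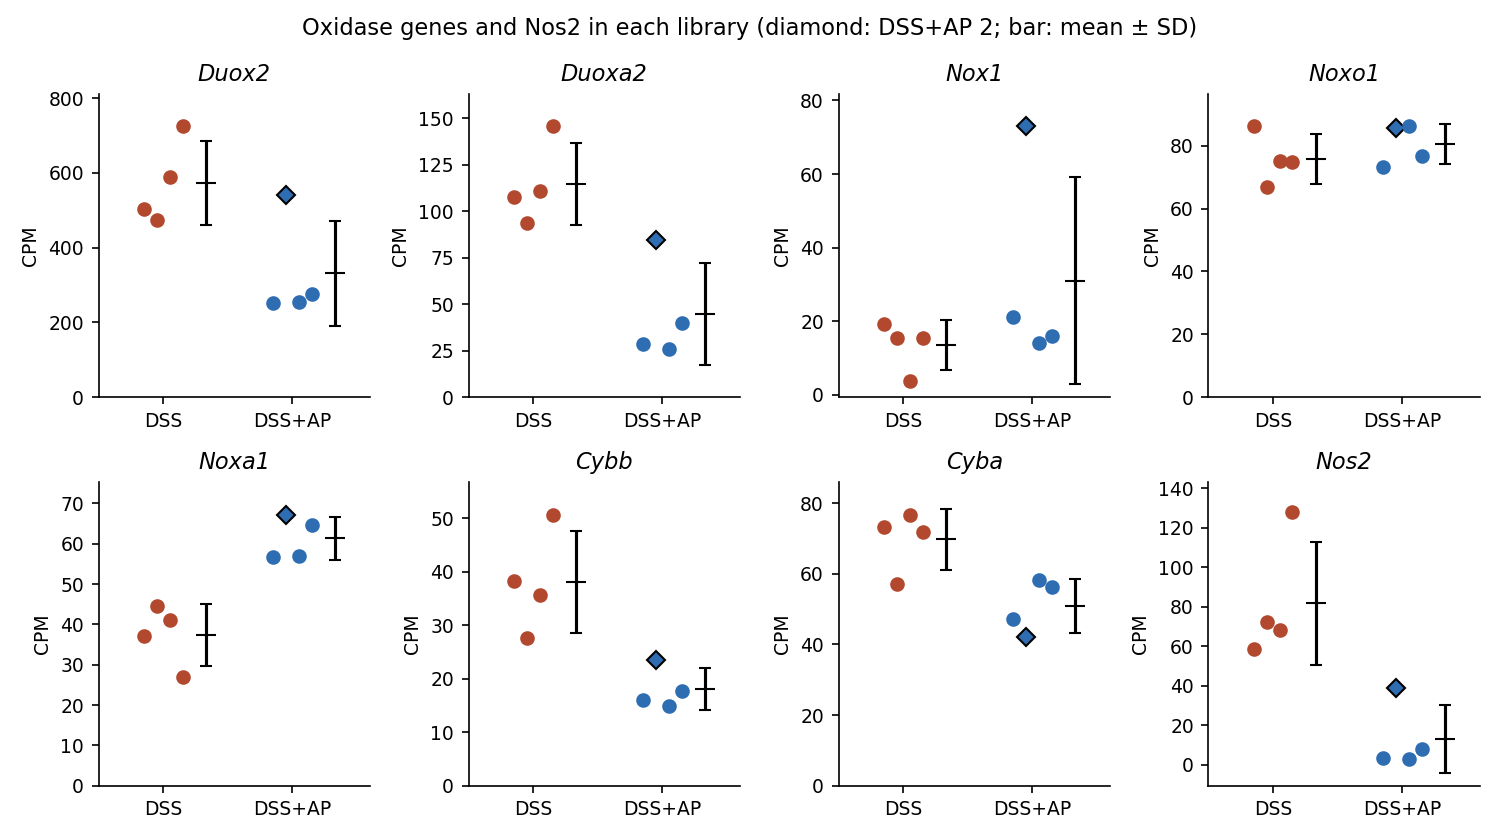
CPM (y axis) of the 8 tested members in each library of the DSS and DSS+AP groups; a diamond marks DSS+AP 2, and the bar beside the points gives the mean ± SD of 4 libraries. In DSS+AP, DSS+AP 2 is the highest library for Duox2 at 542 CPM, Nox1 at 73.1 CPM and Nos2 at 38.8 CPM, whereas the groups of Noxa1 do not overlap.

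Nox1, the superoxide-producing oxidase of colon epithelium, did not pass the test. Its levels were 19.3, 15.5, 3.79 and 15.4 CPM in DSS 1 to 4 and 21.1, 73.1, 14.0 and 15.9 CPM in DSS+AP 1 to 4. DSS 3 was the low library and DSS+AP 2 the high one, and the other 6 lay between 14.0 and 21.1 CPM in both groups alike. The log2 fold change was 1.198 ± 0.63 (edgeR adjusted p = 0.181) and 0.33 ± 0.45 without DSS+AP 2 (0.597). With the mean of the pan-epithelial list as a covariate Nox1 passed at 2.06 ± 0.47 (edgeR adjusted p = 0.0224). Cstf2, which overlaps it on the other strand, was also lowest in DSS 3, at 773 counts, and highest in DSS+AP 2, at 1574 counts, and rose by 0.41 ± 0.13 (edgeR adjusted p = 0.0436). The counts of Nox1 and Cstf2 were fractional and added up to a whole number in each library (61.13 and 772.87 in DSS 3, 1252.49 and 1573.51 in DSS+AP 2). Reads were thus shared out between Nox1 and Cstf2, and the size of that part in the Nox1 counts was not tested.

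Noxo1, which organizes the Nox1 complex at the membrane, stood at 86.3, 66.9, 75.2 and 74.9 CPM in DSS and at 73.3, 85.7, 86.1 and 76.8 CPM in DSS+AP. The groups overlapped throughout, and the log2 fold change was 0.086 ± 0.094 (edgeR adjusted p = 0.510). Its range over 18 alternatives ran from 0.056 to 0.25 with no call. Tbl3, with which Noxo1 shares most of its exon bases, rose by 0.51 ± 0.10 (edgeR adjusted p = 0.00824), from 18.2 ± 2.14 to 25.995 ± 1.09 CPM.

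Noxa1, the activator of the Nox1 complex, was the only member called higher. It had 37.2, 44.6, 41.1 and 26.85 CPM in DSS and 56.7, 67.3, 56.9 and 64.6 CPM in DSS+AP. Each DSS+AP library lay above each DSS library, and DSS+AP 2 was the highest. Its mean went from 37.4 ± 7.69 to 61.3 ± 5.39 CPM, or 0.71 ± 0.15 on the log2 scale (edgeR adjusted p = 0.00928). Leaving out any library kept the call (0.58 to 0.87; adjusted p from 0.00418 to 0.0289). Relative to the pan-epithelial list, Noxa1 was higher by 0.64 (pooled SD 0.25; exact two-sided permutation p = 0.0286, adjusted p = 0.0786).

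Of the genes for the Nox1 complex, Noxa1 was thus called and Nox1 and Noxo1 were not. The ratio of Noxa1 to Noxo1 was not compared. The log2 ratio of Nox1 to Noxa1 differed between groups by 0.33, with a pooled SD of 1.11 (exact permutation p = 0.714), and that of Nox1 to Noxo1 by 0.98, with a pooled SD of 1.05 (p = 0.343). Against Duox2, by contrast, Nox1 was higher in every DSS+AP library than in any DSS library. The log2 ratio of Duox2 to Nox1 ran from 4.70 to 7.24 without AP and from 2.89 to 4.17 with it, a difference of -1.92 (exact permutation p = 0.0286, adjusted p = 0.0786) or -1.65 without DSS+AP 2.

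Cybb, the catalytic chain of the phagocyte oxidase, fell. It was at 38.3, 27.6, 35.6 and 50.7 CPM in DSS and at 16.0, 23.6, 14.9 and 17.8 CPM in DSS+AP, with no overlap. The change was -1.07 ± 0.20 (edgeR adjusted p = 0.00679), from 38.1 ± 9.58 to 18.1 ± 3.87 CPM, and -1.23 ± 0.20 without DSS+AP 2. It was called with any library left out (-1.23 to -0.91). Cybb was also set against markers of the cells that express it. Its log2 ratio to the mean of the 15 monocyte and macrophage genes was 0.073 ± 0.24 in DSS and 0.062 ± 0.049 in DSS+AP (SD, n = 4 each), a difference of -0.011 with a range of -0.091 to 0.091 when any library was left out (exact permutation p = 0.971). Relative to neutrophil genes Cybb was higher in DSS+AP by 1.30 (pooled SD 0.78; exact permutation p = 0.0571, adjusted p = 0.126), and relative to B cell genes by 1.30 (pooled SD 0.79; exact permutation p = 0.0857, adjusted p = 0.157).

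Cyba, the chain shared by Nox1 and Cybb, fell by less. It stood at 73.2, 57.0, 76.8 and 72.0 CPM in DSS and at 47.3, 42.0, 58.3 and 56.2 CPM in DSS+AP. The groups overlapped in DSS 2, the lowest DSS library, and DSS+AP 3. The change was -0.45 ± 0.13 (edgeR adjusted p = 0.0296). The call did not hold when DSS 3 or DSS 4 was dropped, nor when either DSS+AP 1 or DSS+AP 2 was (adjusted p from 0.0547 to 0.113 by edgeR). The log2 ratio of Cybb to Cyba was -0.90 ± 0.27 in DSS and -1.50 ± 0.48 in DSS+AP and overlapped between groups (exact permutation p = 0.114). Nox1 to Cybb, the epithelial against the phagocyte oxidase, was between -3.19 and -0.82 in DSS and between -0.16 and 1.63 in DSS+AP. This difference of 2.12, or 1.73 without DSS+AP 2, had an exact permutation p of 0.0286 (adjusted p = 0.0786).

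**Figure D2:**
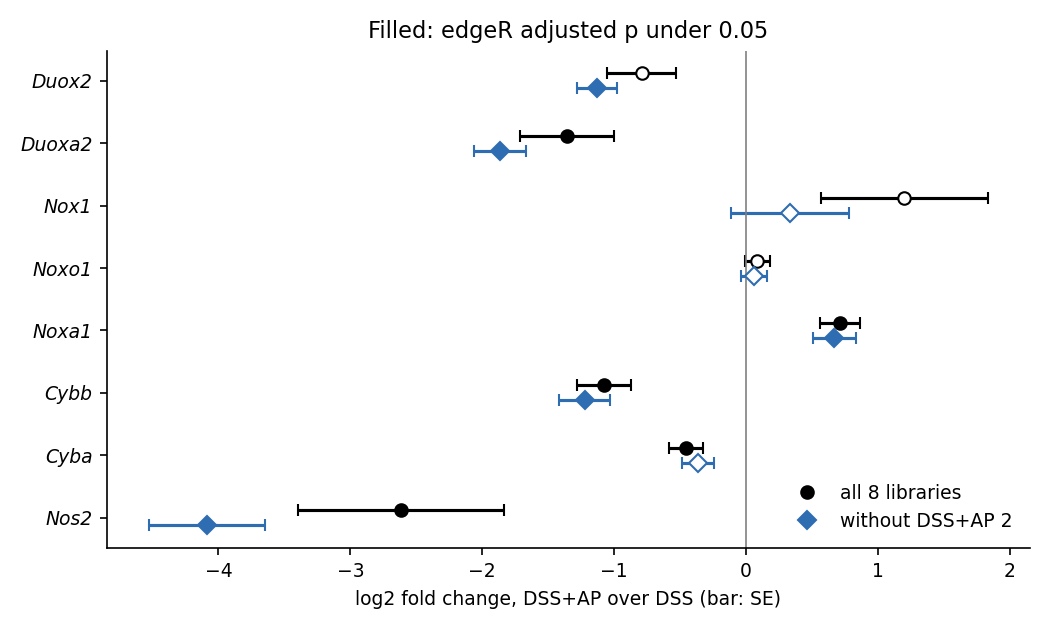
Log2 fold change of DSS+AP over DSS (x axis; bar, SE) of the 8 tested members with all libraries (black circles) and without DSS+AP 2 (blue diamonds); filled symbols have an edgeR adjusted p under 0.05. Without DSS+AP 2, Nos2 moves from -2.61 to -4.09, Duox2 from -0.79 to -1.13 and Nox1 from 1.198 to 0.33, while Noxa1 and Cybb stay within 0.2 of their values.

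Nos2, the inducible nitric oxide synthase, had the widest difference. It was at 58.5, 72.2, 68.5 and 128 CPM in DSS 1 to 4 and at 3.36, 38.8, 2.91 and 8.12 CPM in DSS+AP 1 to 4. Every DSS+AP library was below every DSS library, and DSS+AP 2 was 8.09 times as high as the mean of the other 3 libraries of its group. Nos2 fell by 2.61 ± 0.78 on the log2 scale (edgeR adjusted p = 0.0362), from 81.7 ± 31.3 to 13.3 ± 17.2 CPM, and by 4.09 ± 0.44 without DSS+AP 2 (0.00459). The call was lost when any other library was left out (edgeR adjusted p from 0.0571 to 0.0895), where the change was still between -2.69 and -2.23. The lowest library held 47 counts. With the mean of the smooth muscle list as a covariate, which did not overlap between groups (7.20 to 7.80 against 6.15 to 7.08), no gene at all was called by edgeR (991 higher and 1025 lower at an unadjusted p under 0.05), and Nos2 was at -0.84. The gut wall's share and the treatment cannot be told apart there.

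Nos2 was set against Duox2 within each library. The log2 ratio of Nos2 to Duox2 was -3.11, -2.71, -3.11 and -2.50 in DSS and -6.18, -3.80, -6.39 and -5.06 in DSS+AP. All 4 DSS+AP libraries lay below the DSS libraries, by -2.50 on average (exact permutation p = 0.0286, adjusted p = 0.0786). Relative to the pan-epithelial list the difference was -3.45 for Nos2, -1.599 for Duoxa2 and -0.55 for Cyba, each with no overlap (exact permutation p = 0.0286, adjusted p = 0.0786). Duox2, at -0.94 relative to that list, overlapped (exact permutation p = 0.0857, adjusted p = 0.157), and Noxo1 differed by -0.0026 (pooled SD 0.19).

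**Figure D3:**
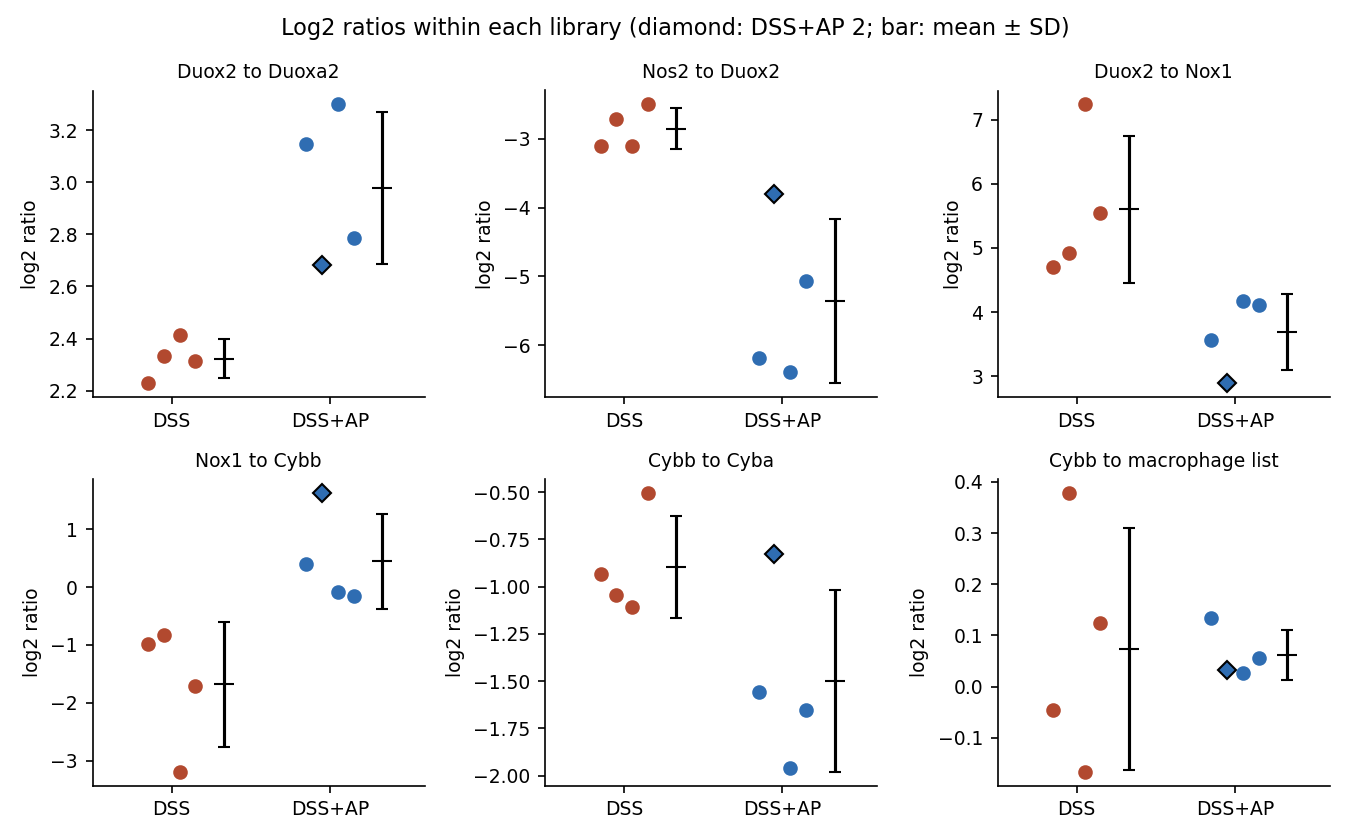
Log2 ratio (y axis, with its own range in each panel) of 2 members, or of Cybb to the mean of the monocyte and macrophage list, in each library; a diamond marks DSS+AP 2 and the bar gives the mean ± SD of 4 libraries. The groups do not overlap for Duox2 to Duoxa2, Nos2 to Duox2, Duox2 to Nox1 and Nox1 to Cybb, and they overlap for Cybb to Cyba and for Cybb to the macrophage list.

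Divided by the length of their exons, the members spread over a wide range of levels, with Duox1 and Duoxa1 lowest in both groups. In DSS the order of the levels in CPM per kilobase was Duox2 (84.7 ± 16.7), Duoxa2 (71.9 ± 13.9), Cyba (67.1 ± 8.38), Noxo1 (25.2 ± 2.64), Noxa1 (23.2 ± 4.76), Nos2 (18.5 ± 7.09), Cybb (6.56 ± 1.65), Nox1 (4.09 ± 2.04), Duox1 (0.1001 ± 0.075) and Duoxa1 (0.055 ± 0.037). The ranges of neighbours in this order overlapped except between Cyba and Noxo1, between Nos2 and Cybb and between Nox1 and Duox1. In DSS+AP the order was Cyba (49.0 ± 7.35), Duox2 (48.9 ± 20.9), Noxa1 (37.9 ± 3.33), Duoxa2 (28.0 ± 17.1), Noxo1 (26.7 ± 2.14), Nox1 (9.39 ± 8.53), Cybb (3.11 ± 0.67), Nos2 (3.02 ± 3.89), Duox1 (0.123 ± 0.039) and Duoxa1 (0.030 ± 0.033). There the ranges were apart between Noxo1 and Nox1, Nox1 and Cybb, Nos2 and Duox1, and Duox1 and Duoxa1. Without DSS+AP 2 the DSS+AP means were 1.09 ± 0.65 for Nos2, 5.15 ± 1.11 for Nox1, 38.5 ± 1.89 for Duox2 and 19.7 ± 4.69 for Duoxa2, which then came after Noxo1 (26.1 ± 2.204; n = 3 each). Per kilobase, Nos2 was thus above Cybb and Nox1 in every DSS library, and Nox1 was above Cybb in the DSS+AP libraries. This last margin was small, at 4.24 for the lowest Nox1 and 4.06 for the highest Cybb. Without division by length the DSS+AP ranges of Nox1 and Cybb overlapped, and the Nox1 counts include reads shared out with Cstf2.

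**Figure D4:**
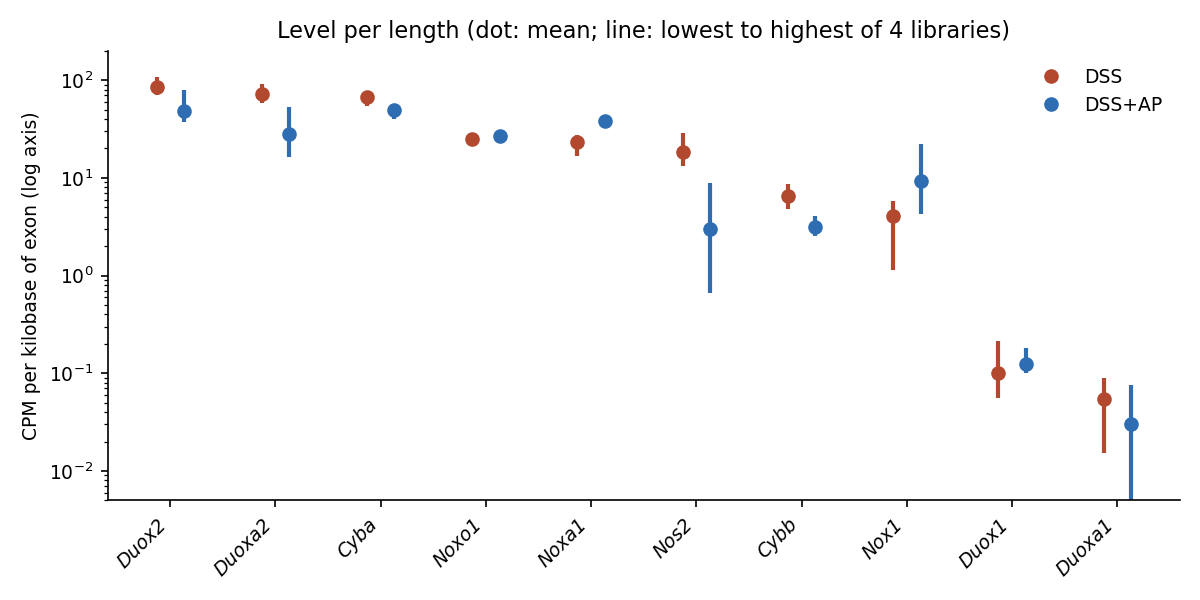
Level in CPM per kilobase of exon (log y axis) of the 10 members in DSS and DSS+AP; dots are means of 4 libraries and lines run from the lowest to the highest library, cut at the axis where a library is at 0. Duox1 and Duoxa1 lie far under the other members in both groups, with means of at most 0.123.

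Of 10 tested genes for partners of the phagocyte oxidase, 4 were lower and none higher, beside 20.4% and 8.84% of all tested genes. Their median was -0.52 beside 0.017 over all tested genes. Without DSS+AP 2, 2 of 10 were lower, near the 19.8% of all genes. Ncf1, which encodes the organizer p47phox, went from 20.6 ± 7.21 to 9.40 ± 0.85 CPM (-1.13 ± 0.26; edgeR adjusted p = 0.0126). Ncf4, which encodes p40phox, fell by 1.199 ± 0.29 (0.0167), and Vav1, an activator of Rac proteins in blood cells, fell by 0.63 ± 0.19 (0.0339). The fourth was Hvcn1, the proton channel that balances charge during the oxidative burst, at -1.07 ± 0.32 (0.0356). The small GTPase gene Rac2 was at -0.70 ± 0.24 (0.0581) and did not pass.

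A further pathway list had 6 tested genes, of which only Nox4 encodes an oxidase. Nox4 was not called (-0.41 ± 0.35; edgeR adjusted p = 0.392). Among the others, Sh3pxd2a and Sh3pxd2b, organizer-like adaptor genes of invading cells, fell (-0.71 ± 0.10 and -1.32 ± 0.22; edgeR adjusted p = 0.00344 and 0.00451). Poldip2 rose by 0.33 ± 0.087 (0.0223). Of the peroxidases that use hydrogen peroxide, 2 were tested, and Pxdn, a matrix peroxidase gene, fell by 0.94 ± 0.16 (0.00461). Mpo, the neutrophil peroxidase gene, was at or under 0.059 CPM in every library, below the floor.

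Genes that remove superoxide and hydrogen peroxide went both ways. Of 24 tested, 5 were higher and 4 lower, beside 8.84% and 20.4% of all tested genes, with a median of 0.18. Among the lower genes, Sod3, the extracellular superoxide dismutase gene, went from 61.1 ± 15.7 to 19.3 ± 4.65 CPM (-1.66 ± 0.23; edgeR adjusted p = 0.00329). Gpx3, the plasma glutathione peroxidase gene, fell by 0.88 ± 0.17 (0.00734). Gpx8 fell by 0.92 ± 0.20 (0.0112) and Gpx1 by 0.27 ± 0.079 (0.0311). Prdx3, the mitochondrial peroxiredoxin gene, rose by 0.50 ± 0.11 (0.0120). The other higher genes were Prdx1 (0.30), Prdx2 (0.28), Txn2 (0.35) and Srxn1 (0.41), with edgeR adjusted p from 0.0159 to 0.0497.

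Around Nos2, 6 of 20 tested genes for nitric oxide synthesis, its substrate and its cofactor were lower, beside 20.4% of all tested genes. The list median was 0.044. Nos3, the endothelial synthase gene, fell from 7.38 ± 1.69 to 2.82 ± 0.52 CPM (-1.38 ± 0.22; edgeR adjusted p = 0.00417). Slc7a2, an arginine carrier gene, fell by 1.26 ± 0.22 (0.00494), and Ddah2, whose product breaks down an inhibitor of the synthases, by 0.76 ± 0.14 (0.00633). The neuronal synthase gene Nos1 (-2.23 ± 0.46), the arginine-recycling gene Ass1 (-1.10 ± 0.26) and Gch1 (-0.44 ± 0.13), whose product begins the synthesis of the cofactor, were the others (edgeR adjusted p = 0.00927, 0.0141 and 0.0319). Nos3 moved beside endothelial markers, all 8 of which were lower, and the part of these cells in its fall was not tested.

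Of 22 tested cytokines, receptors and factors known to induce Duox2, Nox1 or Nos2, 10 were lower, beside 20.4% of all tested genes. Their median was -0.36. Tlr4, the receptor of bacterial lipopolysaccharide, fell by 0.81 ± 0.11 (edgeR adjusted p = 0.00329), Tnf went to -1.97 ± 0.33 (0.00451), and Cebpb, a transcription factor gene of the acute phase, to -1.32 ± 0.22 (0.00451). Il22, a cytokine known to induce Duox2 in epithelium, was left out by the low-count filter. It was uneven among DSS libraries, at 3.68, 0.589, 0.124 and 3.96 CPM, and at 0.300, 0.117, 0 and 0 CPM in DSS+AP. Il17a was untested too, at 0.235 to 0.791 CPM without AP and at or under 0.175 CPM with it. So was Il17f, at 0.118 to 0.731 CPM without AP and at or under 0.175 CPM with it. Ifng, also untested, overlapped between groups, at 0.062 to 0.294 CPM without AP and 0 to 0.350 CPM with it. Apart from Il22 in DSS+AP 1 and Ifng in DSS+AP 2, the DSS+AP values of these untested genes were at or below the floor. Il22 in DSS 3 was below it as well. Of 18 genes listed as epithelial defence genes of colitis, 11 were lower and 1 higher, beside 20.4% and 8.84% of all tested genes. The list median was -1.81. The other 6 were not called (edgeR adjusted p from 0.437 to 0.988). They were Reg3b (-0.012 ± 0.46), Reg3g (0.090 ± 0.49), Pigr (-0.032 ± 0.18), Sprr1a (-0.34 ± 0.48), Dmbt1 (0.049 ± 0.17) and Retnlb (0.80 ± 0.74). The genes S100a8, S100a9 and Lcn2, all called lower, stand in this list and in the neutrophil list. The list is thus not one of epithelial cells alone, and its median does not describe the epithelium by itself. Saa3, an acute-phase gene, fell by 2.24 ± 0.41 (0.00626), Hp, the haptoglobin gene, fell by 2.58 ± 0.44 (0.00494), and Zc3h12a, whose product degrades cytokine messages, fell by 0.81 ± 0.14 (0.00509). The higher one was Ido1, which encodes a tryptophan-degrading enzyme, at 0.75 ± 0.21 (0.0294), and without DSS+AP 2 the list had 0 higher and 11 lower by edgeR. Neutrophil and macrophage markers were lower in the same libraries, and their part in these list counts was not tested.

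**Figure D5:**
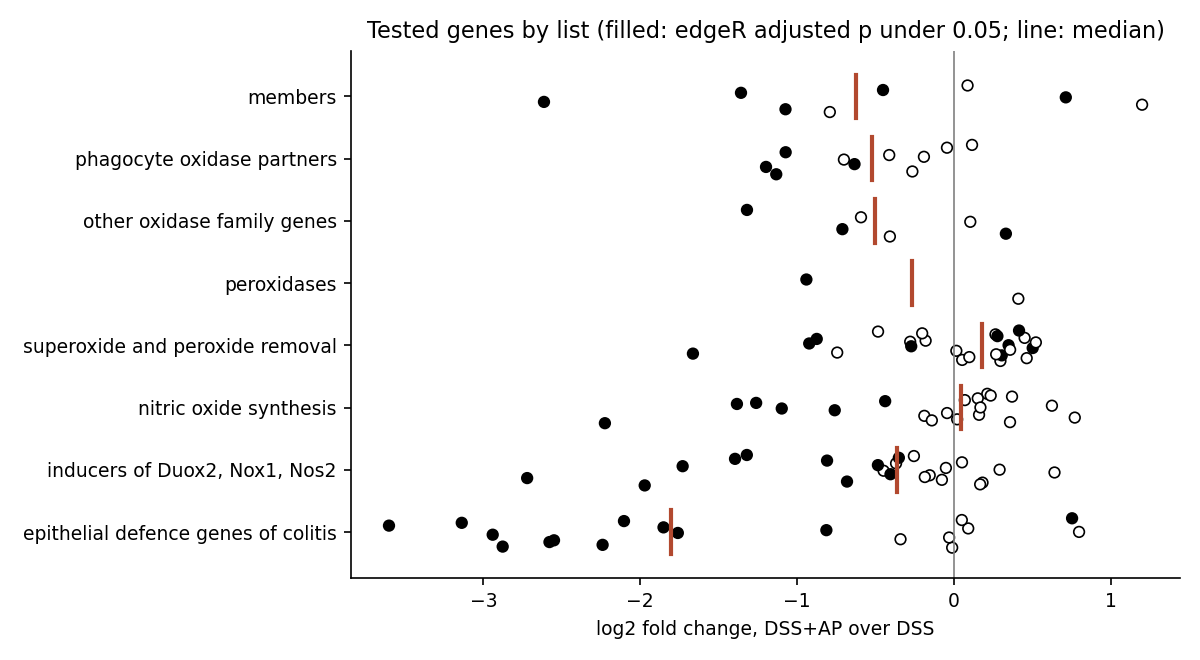
Log2 fold change of DSS+AP over DSS (x axis) of every tested gene in each pathway list and of the 8 tested members; filled points have an edgeR adjusted p under 0.05 and the red line is the list's median. The medians run from -1.81 for the list of epithelial defence genes, which shares genes with the neutrophil list, to 0.18 for genes that remove superoxide and peroxide.

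The genes whose log2 CPM over the 8 libraries was most like that of a member were taken from 13678 tested genes. For Duox2 they were Ptk6, Pip4k2b, Arap1, Mptx1 and Ttr (Pearson's r from 0.971 to 0.988), and for Nos2 they were Rrad, Dgkb, Usp27x, Pacsin3 and Il18 (0.967 to 0.978). Cybb was most like C3, Flrt1, Pld2 and C1ra (0.992 to 0.997), and Nox1 most like Txlna, Chtf8, Ckap5, Dnah8 and Armcx3 (0.967 to 0.974). Like Duox2, Ptk6 was in DSS+AP 2 within its DSS range, at 29.0 CPM, against 10.2 to 13.5 CPM in the other DSS+AP libraries. These values are descriptions of 8 libraries that share the difference between groups, and the genes were chosen for them.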

How the data were processed

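RNA of 8 colons, 4 per group, was sequenced. Per the submitters' processing notes, HISAT2 2.1.0, Bowtie2 2.2.5 and RSEM 1.2.8 were used with GRCm38.p6; the role of each tool and the strand setting are not given in the sources used here. The deposited values are the authors' expected counts per gene, not normalized, and 10.7% to 11.5% of them in each library were not whole. They were rounded. Genes were filtered with filterByExpr, scaled by TMM and tested with edgeR 4.0.16 (robust quasi-likelihood, 2 groups, no covariate), with Benjamini-Hochberg adjustment over 14578 genes and a threshold of 0.05. Ratios within a library are differences of log2 CPM (prior count 2), compared by an exact two-sided permutation test over 70 assignments. Lengths are GENCODE exon unions. R 4.3.3, DESeq2 1.42.0 and limma 3.58.1 served the alternatives, and scripts were tested on simulated data.

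The members, gene lists and tests were chosen with earlier results of these data known. All members were named. From each pathway list up to 3 called genes with the smallest p were named, and for Duox2, Nox1, Cybb and Nos2 the 5 genes most like each (mean log2 CPM of at least 0, predicted genes and RIKEN clones left out). Some genes that this rule names are not reported here. Marker lists are given as counts. Hvcn1, Rac2, Prdx3, Nos1, Ass1, Gch1, Ido1, Mpo, S100a8, S100a9, Lcn2, Reg3b, Reg3g, Pigr, Sprr1a, Dmbt1, Retnlb, Il22, Il17a, Cstf2 and Tbl3 were named after their values were seen. So were Il17f, Ifng, Nox4, Gpx1, Prdx1, Prdx2, Txn2 and Srxn1.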

Additional observations from a re-analysis of the deposited data

Results flagged for a closer look

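Of 64 groups of 4 libraries examined, 8 held a library whose gap to the nearest other exceeded Dixon's 95% critical value for 4 values, where chance gives about 1 group in 20. In 3 of them the library was DSS+AP 2: Duox2 at 542.39 CPM (others 252 to 275 CPM), Nox1 at 73.118 CPM (others 14.0 to 21.1 CPM) and Nos2 at 38.821 CPM (others 2.91 to 8.12 CPM). Duox1 stood apart in DSS 3, at 1.1153 CPM or 18 counts, and in DSS+AP 1, at 0.95976 CPM or 16 counts. In DSS 3 the log2 ratio of Nox1 to Noxo1 was -4.2692 (others -2.27 to -2.10) and that of Nox1 to Cyba -4.2985 (others -2.21 to -1.87). The log2 ratio of Nos2 to the pan-epithelial list was -2.95 in DSS 4 (others -4.02 to -3.84).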

How the results depend on the processing

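With no filter on low counts Cyba (-0.38) and Nos2 (-2.54) lost their calls and 1950 genes were higher. Duox2 was called with a minimum of 1 CPM in 4 libraries (-0.80), with DESeq2 (-0.76; 2107 genes higher) and with limma-voom with sample quality weights, which changed method and weighting together (-1.09; 2379 higher). The epithelial covariate gave Nox1 2.06, called, and Nos2 -2.36, not called. The smooth muscle covariate left 0 genes higher and 0 lower in edgeR (991 and 1025 at an unadjusted p under 0.05), with Duoxa2 at -0.23, Noxa1 0.77, Cybb -0.47, Cyba -0.65, Nos2 -0.84, Duox2 -0.0034 and Nox1 2.62. Same-numbered libraries correlated at -0.136, -0.452, 0.359 and -0.185 in their deviations from the group means. These values take in every difference between libraries, so they cannot decide whether equal numbers were paired, and the sources used here do not say. A replicate block gave 582 genes higher and 1967 lower and ended no member's call. When each library was left out in turn, genes higher ran from 525 to 2101 and genes lower from 1985 to 3086, Duox2 from -1.13 to -0.62, Duoxa2 from -1.86 to -1.13, Nox1 from 0.33 to 1.47, Noxo1 from 0.057 to 0.19, Noxa1 from 0.58 to 0.87, Cybb from -1.23 to -0.91, Cyba from -0.52 to -0.36 and Nos2 from -4.09 to -2.23. Without division by length 6 of 10 members kept their rank in DSS and 6 in DSS+AP; with the longest coding transcript, 8 and 8 did, and without DSS+AP 2, 8 did in DSS+AP (both chosen after seeing the data). The log2 difference of Cybb to the macrophage list turned to 0.0070 with a prior count of 0.5. The cause of these changes was not tested. Duox1 and Duoxa1 are limited by depth, at 18 counts or fewer in each library.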
